A study of Mus musculus with 6 samples.

Results

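The genes described here are the splicing factors and heterogeneous nuclear ribonucleoproteins (hnRNPs) of mouse CD8+ T cells, taken by symbol: every gene of the expression table whose symbol starts with Srsf, Srrm, Sf3a, Sf3b, Snrp, Hnrnp, Prpf or Lsm, without symbols that contain -ps. This gave 83 of 24559 genes, 11 Srsf, 2 Srrm, 3 Sf3a, 6 Sf3b, 13 Snrp, 20 Hnrnp, 13 Prpf and 15 Lsm. The symbol rule also takes 3 genes that are placed here in none of the protein groups described below. Lsmem1 and Lsmem2 encode membrane proteins, and Snrpert is a single-exon gene of 279 nt with a symbol derived from Snrpe. Whether Snrpert is a copy of Snrpe, and whether reads of the 2 genes were counted for each other, was not tested. Lsmem1 and Lsmem2 held reads in 1 or 2 libraries at most and were not tested, so 81 genes passed the filter on low values, 10 or more normalized reads in 3 or more libraries.

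RNA sequencing was done on CD8+ T cells from the spleens of wild-type C57 BL/6 mice, kept as a primary culture. In 3 libraries the cells had been treated with L-4F, a synthetic peptide made to mimic apolipoprotein A1, the chief protein of HDL particles, and in the 3 control libraries they had been given ABCT buffer. Both groups share strain, genotype, tissue and cell type, and they differ by treatment only as far as the labels say. Not given in the sources used here are the dose and time of treatment, the number of mice and the composition of the buffer. Whether replicate libraries are separate animals or cultures is not stated either, so the p-values describe the spread between these samples only, and that spread may be technical. Genes are given in normalized reads, the read count divided by a library factor, and the libraries held 25073292 to 31332003 reads. A count of 0 in a library allowed up to 0.0957 to 0.120 CPM, reads scaled to the library's total (3 counts, counting error only).

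Of 6 markers of CD8 T cells, which include Cd8a, Cd8b1 and the CD3 chains, 5 were higher with L-4F, and their summed level was 2719 to 2727 CPM in the buffer libraries and 3069 to 3141 CPM in the L-4F libraries. Markers of other blood cells were low: 8.58 to 10.1 against 11.5 to 13.2 CPM for B cells (1 of 5 tested higher), 39.3 to 42.3 against 47.3 to 49.8 CPM for natural killer cells (2 of 5 higher), and 46.4 to 53.4 against 48.4 to 51.7 CPM for monocytes, macrophages and dendritic cells (0 of 5 called). Neutrophil markers summed to 5.81 to 6.09 against 10.7 to 12.2 CPM (3 of 3 tested higher), erythroid and platelet markers to 35.4 to 37.5 against 49.3 to 51.7 CPM (3 of 5 tested higher), and CD4 T cell markers to 18.7 to 20.7 against 16.4 to 17.3 CPM (1 of 2 lower). No list had a marker at 0 in all libraries. The part of these markers in the results below was not tested, and in bulk RNA fewer cells of a type and less RNA per cell cannot be told apart.

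Splicing is carried out by the spliceosome, which is built on each intron from small nuclear ribonucleoproteins (snRNPs) named after their RNAs, U1, U2, U4, U5 and U6. Each snRNP has a ring of Sm or LSm proteins and a set of specific proteins: U1 reads the 5′ splice site, U2 with its SF3a and SF3b parts binds the branch point, and the U4/U6.U5 tri-snRNP, with PRPF8 at its centre, brings the catalytic core. Serine and arginine rich (SR) proteins mostly help exons to be recognised, hnRNPs coat nascent RNA and often oppose them, and in T cells hnRNPLL and hnRNPL act on the variable exons of CD45, whose shorter forms mark activated and memory cells. The table holds a value per gene and none per isoform, so splicing itself was not measured.

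With L-4F, 13 of the 16 genes of the Sm and LSm rings rose (7 after the length correction described below). The 2 Srrm genes and the large tri-snRNP scaffold Prpf8 fell. Of 9 SF3 genes 3 were higher and 5 lower (3 and 2 after length correction). Most hnRNP genes, 15 of 20, did not pass the test, while after length correction 8 were higher and 1 lower. Of the 81 genes tested, 31 (38.3%) were higher with L-4F and 13 (16.0%) lower at an adjusted p under 0.05 (limma, Benjamini-Hochberg over 14922 genes), and 37 were not called. Over all genes tested, 18.4% were higher, 19.7% lower and 38.2% called in either direction. These shares are the background for the counts by family and list below. The median log2 fold change was 0.063 over these genes and -3.7e-05 over all genes. Without the Snrp and Lsm genes, 14 of 55 were higher and 13 lower, with a median of 0.020. The groups did not overlap, with every L-4F library above or below every buffer library, for 51 of the 81 genes, against 47.6% of all genes tested. Changes were small: the largest was Srrm2, 1.49-fold lower, and the median size among the 44 called genes was 0.20 on the log2 scale. Every fold change is a difference of log2(normalized reads + 1).

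**Figure D1:**
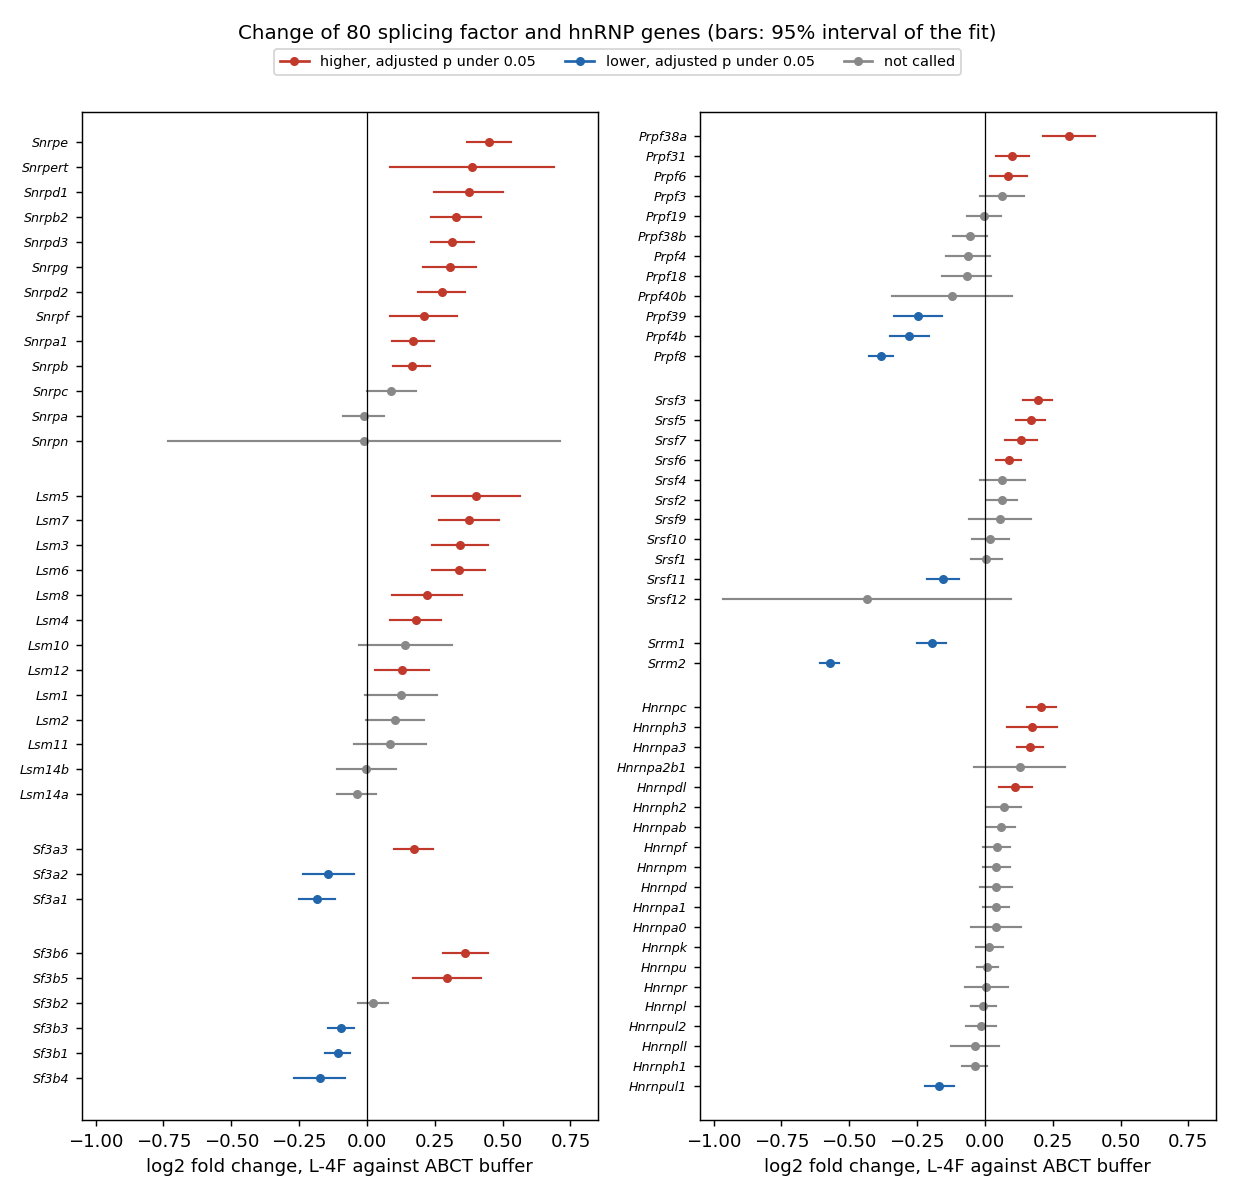
Log2 fold change of 80 of the 81 tested genes, L-4F against ABCT buffer (horizontal axis), grouped by family and ordered within it, with points for the estimate and bars for the 95% interval of the limma fit over 3 libraries per group. Red genes were higher and blue genes lower at an adjusted p under 0.05, and 10 of the 13 Snrp genes in the upper left, all of them plotted, are red while both Srrm genes are blue.

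Fold changes over the whole table were related to transcript length, and the splicing genes followed this relation in part. The length used is that of the longest transcript of the gene in GENCODE M21. Across 14910 genes the rank correlation of fold change with length was -0.45, and across the 81 splicing genes it was -0.58 (rho, as a description, since genes of the same libraries are not independent). The 7 tested members with a transcript under 1000 nt had a median log2 fold change of 0.37, where all 1939 tested genes of that length had 0.21. The 15 members of 5000 nt or more had a median of -0.0033, with 1 higher and 5 lower, where all 2743 genes of that length had -0.21, with 104 higher and 1514 lower. Because of this, results below are also given after length correction, in which a smooth trend in transcript length was taken out of every library, so that all genes of the table are centred near 0 at each length. After it 29 splicing genes were higher and 9 lower, against 13.5% higher, 12.9% lower and 26.4% in either direction of all genes. Of the 44 calls, 25 stayed in the same direction, 17 were lost and 2, Sf3b1 among them, became calls in the opposite direction. The 15 longest members then had 11 higher and 2 lower, where all 2743 genes of that length had 497 higher (18.1%) and 505 lower (18.4%). The part of transcript length in these changes was not tested.

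**Figure D2:**
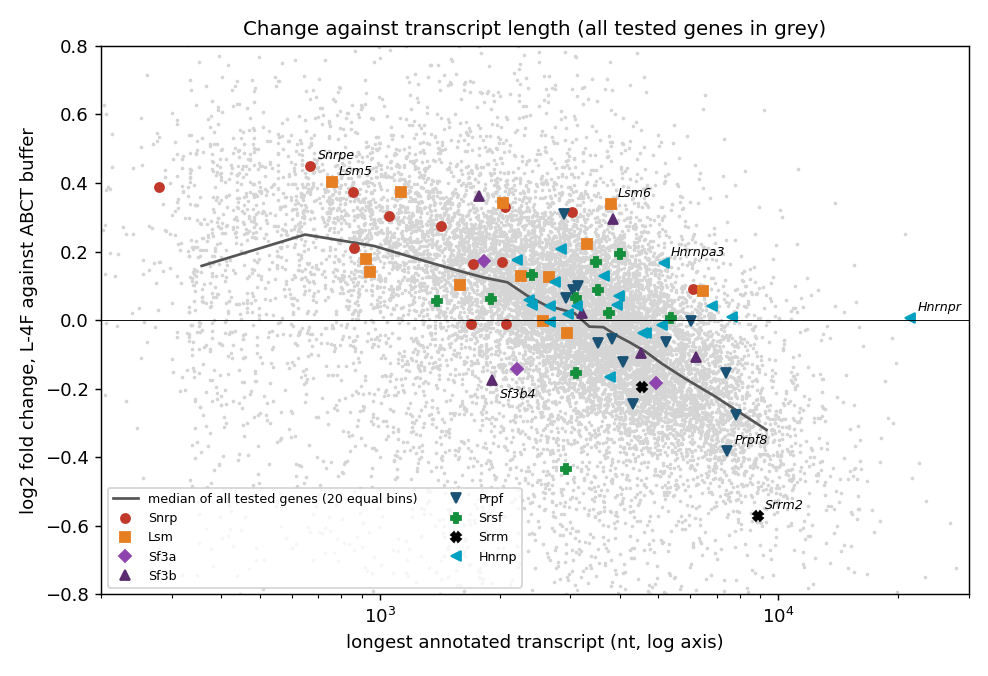
Log2 fold change, L-4F against ABCT buffer (vertical axis), against the length of the longest annotated transcript in nt (log axis), with all tested genes as grey dots, their median in 20 bins of equal size as a line and the splicing genes as coloured symbols by family. The line falls from short to long transcripts; Snrpe and Lsm5 sit high on the left, Srrm2 lies below the line at 8864 nt, and Hnrnpr at 21452 nt stays near 0.

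Srrm2, Prpf8, Lsm5 and Lsm6 are shown with the DNA before their start sites, since no other regulatory sequence of the members is used here. Lsm5 and Lsm6 are examples of genes that rose, and Snrpe, which rose more, is not shown. The sequences are the 250 bases before the RefSeq start (GRCm38.p6), in the direction of the gene, or, for Lsm5, the 239 bases that hold no annotated exon. Srrm2 (chr17:23802937-23803186, plus strand) and Prpf8 (chr11:75486527-75486776, plus strand) fell, and Lsm5 (chr6:56704711-56704949, minus strand) and Lsm6 (chr8:78821153-78821402, minus strand) rose. The Srrm2 window stands before its RefSeq start but inside the Srrm2 gene as GENCODE M21 places it, downstream of the gene's first annotated base. Capitals mark matches, on either strand, to CCGGAAG (a core of ETS factor sites), CCAAT (a site of NF-Y) and GGGCGG (a site of SP factors).
Srrm2: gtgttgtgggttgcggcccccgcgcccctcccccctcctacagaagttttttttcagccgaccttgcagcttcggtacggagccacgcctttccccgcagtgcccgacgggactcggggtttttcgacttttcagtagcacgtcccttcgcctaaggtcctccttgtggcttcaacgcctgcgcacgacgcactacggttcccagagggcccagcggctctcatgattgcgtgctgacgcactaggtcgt
Prpf8: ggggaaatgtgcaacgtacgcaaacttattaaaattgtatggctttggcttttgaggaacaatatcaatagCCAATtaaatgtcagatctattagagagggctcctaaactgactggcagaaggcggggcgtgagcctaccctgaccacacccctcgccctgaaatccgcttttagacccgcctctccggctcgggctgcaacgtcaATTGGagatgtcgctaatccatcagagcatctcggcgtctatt
Lsm5: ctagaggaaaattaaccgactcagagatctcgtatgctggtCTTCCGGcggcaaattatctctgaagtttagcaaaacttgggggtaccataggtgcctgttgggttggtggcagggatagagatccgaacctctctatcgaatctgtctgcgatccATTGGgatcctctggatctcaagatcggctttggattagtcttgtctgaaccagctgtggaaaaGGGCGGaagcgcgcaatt
Lsm6: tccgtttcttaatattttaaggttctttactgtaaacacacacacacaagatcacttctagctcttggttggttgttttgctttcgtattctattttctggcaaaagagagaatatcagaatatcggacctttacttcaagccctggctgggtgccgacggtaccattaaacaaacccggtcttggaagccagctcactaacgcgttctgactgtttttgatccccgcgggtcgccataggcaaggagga
Prpf8 has 2 CCAAT matches in this window, Lsm5 has 1 match to each of the 3 motifs, and Srrm2 and Lsm6 have none.

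Of the 83 genes, 71 had a promoter in the RefSeq table, and 7 motifs were searched on both strands of the 250 bases before each start. They were CCGGAAG and CGGAAG, which is part of it, the NRF1 core GCATGCGC, the E box CACGTG, the NF-Y core CCAAT, the GC box GGGCGG and the TATA box TATAAA. The first motif, CCGGAAG, was in a window of 19 of 71 genes (26.8%), against 16.0% of the tested genes with a promoter and 7.83% of all genes with a promoter. It was in 7 of 25 genes that were higher, 5 of 11 that were lower and 7 of 33 that were not called. CCAAT was in 47.9% of the genes (40.6% of tested genes, 37.5% of all genes with a promoter) and in 13 of 18 Hnrnp genes, the family with the highest share. GGGCGG was in 66.2% (62.4% and 35.4%) and in 10 of 11 Srsf genes, again the highest share. CGGAAG was in 49.3% of the genes and 29.0% of tested genes, and GCATGCGC in 9.86% and 5.04%. CACGTG (9.86% and 9.81%) and TATAAA (8.45% and 7.85%) were near the share of tested genes. A match is a description of the sequence only.

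The Sm proteins form the ring around the U1, U2, U4 and U5 RNAs, and 7 of the 8 Sm genes rose with L-4F, with a median log2 fold change of 0.29. The summed level of the 8 genes was 15531, 16405 and 15735 normalized reads in the buffer libraries and 19543, 19878 and 18817 in the L-4F libraries, a rise of 22.2%. Snrpe (SmE) rose most of all splicing genes, with 1728, 1774 and 1778 normalized reads in the buffer libraries and 2442, 2421 and 2351 in the L-4F libraries (log2 fold change 0.45, SE 0.039, adjusted p = 5.8e-09). Each L-4F library was above each buffer library by a wide margin. Snrpe (ENSMUSG00000090553, chromosome 1 from 133603871 to 133610291, GRCm38) is a short gene, of 4 exons and 669 nt, and kept its call after length correction (0.22, adjusted p = 0.00017).

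Snrpd1 (SmD1) was at 2065, 2228 and 2167 normalized reads in the buffer libraries and 2988, 2912 and 2497 in the L-4F libraries, a log2 fold change of 0.37 (adjusted p = 0.00023). L-4F library 3 was the lowest of its group but still above the buffer libraries. Snrpd3 (SmD3) rose from 3355 ± 129.7 to 4175 ± 200.4 normalized reads (SD, n = 3; 0.31), Snrpg (SmG) by 0.30 and Snrpd2 (SmD2) by 0.28. Snrpb (SmB), the member with the most reads, was at 4012, 4179.8 and 3919 normalized reads in the buffer libraries and 4512, 4673 and 4390.3 in the L-4F libraries, a smaller rise (0.16, SE 0.033). Snrpf (SmF) was at 1393, 1432 and 1426 normalized reads in the buffer libraries and 1762, 1719 and 1451 in the L-4F libraries (0.21, adjusted p = 0.00853). Its L-4F library 3 lay close to the buffer libraries, and its call ended without L-4F library 1 (0.16, adjusted p = 0.0549). Snrpf was not called either by limma with its default spread model (adjusted p = 0.119).

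The eighth gene, Snrpn (SmN), takes the place of Snrpb in neurons and is imprinted. It was near the filter at 17.6, 16 and 19.6 normalized reads in the buffer libraries and 16.7, 23.8 and 13.5 in the L-4F libraries, with groups that overlapped (95% interval -0.73 to 0.71), and its exons overlap those of Snurf. After length correction Snrpe, Snrpd2 (0.11) and Snrpd3 (0.29) were the Sm genes still called higher. Snrpd1 was then at 0.16 (adjusted p = 0.0533), Snrpg at 0.10 (adjusted p = 0.116), Snrpb at 0.031 and Snrpf at -0.0082. Sm genes have many processed copies in the genome, and reads could have been shared with them. Snrpert, the single-exon gene, rose from 118 ± 16.9 to 154 ± 21.5 normalized reads (0.39, adjusted p = 0.0399), and was not called without buffer library 1, buffer library 2 or L-4F library 1 (adjusted p = 0.148, 0.129 and 0.193).

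The U1 and U2 proteins outside the ring did not all rise. Snrpb2 rose from 1514 ± 47.8 to 1903 ± 69.1 normalized reads (SD, n = 3; 0.33, adjusted p = 3.8e-06), with 0.23 after length correction, and its U2 partner Snrpa1 rose by 0.17 and was not called in that setting (0.063, adjusted p = 0.229). The U1 gene Snrpa, which binds a stem loop of U1 RNA, was at 3038, 2824 and 2852 normalized reads in the buffer libraries and 2909.9, 2828 and 2906 in the L-4F libraries, and the groups overlapped (95% interval -0.087 to 0.065, adjusted p = 0.844). Snrpc, which helps U1 to bind the 5′ splice site, was at 0.090 (adjusted p = 0.111). After length correction these U1 genes went apart, Snrpa to -0.15 (adjusted p = 0.00392) and Snrpc, whose longest transcript has 6107 nt, to 0.26 (adjusted p = 5.8e-05). Snrpa shares 327 exonic bases with BC024978 on the other strand. The third U1 protein gene, Snrnp70, rose by 0.096 (adjusted p = 0.00355).

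LSm proteins form 2 related rings: LSM2 to LSM8 on the U6 RNA in the nucleus and LSM1 to LSM7 in the cytoplasm, where the ring acts in decapping and decay of mRNA. Of the 8 ring genes 6 rose with L-4F (median log2 fold change 0.28), and in all 8 the L-4F libraries lay above the buffer libraries. Their summed level was 8436, 8509 and 8537 normalized reads in the buffer libraries and 10537, 10246 and 9721 in the L-4F libraries, a rise of 19.7%. Lsm5 was at 477, 482 and 457 normalized reads in the buffer libraries and 667, 657 and 553 in the L-4F libraries (0.40, SE 0.078, adjusted p = 0.00027), with L-4F library 3 the lowest of its group. Lsm7 was at 866, 907 and 927 normalized reads in the buffer libraries and 1186, 1159 and 1156 in the L-4F libraries (0.38, adjusted p = 6.6e-06), with little spread in either group. Lsm3 and Lsm6 rose by 0.34 and 0.34, Lsm8, the subunit that marks the nuclear ring, by 0.22, and Lsm4 by 0.18. Lsm8 was not called by limma with its default spread model (adjusted p = 0.107).

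Lsm1, the subunit that marks the cytoplasmic ring, was at 656, 607 and 649 normalized reads in the buffer libraries and 714, 675 and 696 in the L-4F libraries (log2 fold change 0.13, 95% interval -0.0084 to 0.26, adjusted p = 0.136). Lsm2 was at 1073, 1047 and 1027 normalized reads in the buffer libraries and 1150.2, 1101 and 1129 in the L-4F libraries (0.10, adjusted p = 0.123). In both the L-4F libraries were higher without a call. A difference between Lsm1 and Lsm8 was not tested, and their intervals overlapped. After length correction 4 of the 8 ring genes (50.0%) were higher and 0 lower, with values from -0.043 to 0.37. Of all genes 13.5% were then higher and 12.9% lower. Lsm1 and Lsm2 were among the 4 not called. Lsm6, with a transcript of 3792 nt, did not come down in that setting (0.37, adjusted p = 4.5e-06), while Lsm5 (757 nt) went to 0.18 (adjusted p = 0.0955) and Lsm4 (925 nt) to -0.034. Lsm3 (0.24), Lsm8 (0.22) and Lsm7 (0.18) kept their calls.

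Of the 5 Lsm genes outside these rings 1 was called. Lsm12 rose by 0.13 (adjusted p = 0.0375), and not without buffer library 1, buffer library 3 or L-4F library 1 (adjusted p = 0.159, 0.108 and 0.212), the last with a value of 0.0817. Lsm10 (0.14) and Lsm11 (0.085), which belong to the U7 snRNP of histone mRNA processing, were not called, and neither were Lsm14a (-0.037) and Lsm14b (-0.0027), which act in cytoplasmic RNA granules. Lsm11, a long gene of 6453 nt, was at 0.28 after length correction (adjusted p = 0.00279). Lsm14a held the most reads of the Lsm genes, with 4266, 4144 and 4290.3 normalized reads in the buffer libraries and 4177, 4298 and 3909 in the L-4F libraries.

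The SF3a and SF3b complexes are the parts of U2 snRNP that hold the branch point. Of their 9 genes 3 rose, 5 fell and 1 was not called, so subunits of the same complex went in opposite directions. Sf3b6 (p14), which lies next to the branch site, was at 2292, 2245 and 2098 normalized reads in the buffer libraries and 2834, 2923 and 2774 in the L-4F libraries (0.36, SE 0.04, adjusted p = 2.1e-07). Sf3b5, the smallest subunit, was at 835, 835 and 768 normalized reads in the buffer libraries and 1042, 945 and 1005 in the L-4F libraries (0.29, adjusted p = 0.00041). Phf5a, the SF3b subunit named outside the family, rose by 0.31. Sf3b5 and Sf3b6 kept their calls after length correction (0.33 and 0.23), as did Phf5a (0.17).

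Sf3b1, the large scaffold that closes on the branch helix, was at 19238, 19146 and 18742 normalized reads in the buffer libraries and 17159, 18209 and 17642 in the L-4F libraries (-0.11, adjusted p = 0.00064). Its L-4F libraries were all below the buffer libraries, and after length correction it was called higher (0.070, adjusted p = 0.0146; longest transcript 6195 nt). Sf3b3, another scaffold of SF3b, was at 12509, 12581 and 12496 normalized reads in the buffer libraries and 11979, 11725 and 11499 in the L-4F libraries (-0.095) and went to -0.015 in that setting. Its exons overlap Cog4 on the other strand. Sf3b4 fell from 2177 ± 40.2 to 1933 ± 124 normalized reads (SD, n = 3; -0.17, adjusted p = 0.00391), and its fall was larger after length correction (-0.29). Sf3b2 was not called (0.021, 95% interval -0.033 to 0.076). The falls of Sf3b1, Sf3b3 and Sf3b4 were not called by limma with its default spread model (adjusted p = 0.0844, 0.0822 and 0.0753).

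In SF3a, Sf3a3 was at 3209, 3208 and 3077 normalized reads in the buffer libraries and 3646, 3438 and 3617 in the L-4F libraries (0.17, adjusted p = 0.00035). Sf3a1 was at 4112, 3925 and 3980.0 normalized reads in the buffer libraries and 3512, 3565 and 3496 in the L-4F libraries (-0.18, adjusted p = 6.4e-05). The groups did not overlap in either gene, and the change was upward in Sf3a3 and downward in Sf3a1. Sf3a2 was at 2333, 2355 and 2379.7 normalized reads in the buffer libraries and 2037, 2052 and 2329 in the L-4F libraries (-0.14, adjusted p = 0.0175), with L-4F library 3 just under the buffer libraries. Its call ended without buffer library 2, buffer library 3, L-4F library 1 or L-4F library 2 (adjusted p = 0.0534, 0.0575, 0.0964 and 0.0711), and its exons overlap Plekhj1. After length correction Sf3a2 was the SF3a gene still called (-0.23, adjusted p = 0.00064), with Sf3a1 at -0.079 and Sf3a3 at 0.048.

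The SF3 genes are also the family in which CCGGAAG was most often present before the start site, in 6 of the 7 genes with a promoter, all but Sf3b1. The sites stand in genes that rose (Sf3a3, Sf3b6), fell (Sf3a1, Sf3a2, Sf3b3) and were not called (Sf3b2). These stretches show 4 of the sites in the direction of the gene (GRCm38.p6), with the motif or its reverse complement in capitals.
Sf3a2: cctttgctcCCGGAAGggatcgctt
Sf3a3: cccaagacaCTTCCGGgacacgcgg
Sf3b3: cggtgggcgCTTCCGGgcttgcgag
Sf3b6: gtccgcaatCCGGAAGcgttctgga
They lie at chr10:80798650-80798674 (plus strand), chr4:124714762-124714786 (plus), chr8:110847017-110847041 (minus) and chr12:4817529-4817553 (plus). Counted from the last base of the motif to the RefSeq start, they stand 70, 84, 223 and 64 bases upstream.

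Prpf genes, named after yeast mutants in pre-mRNA processing, encode mainly proteins of the tri-snRNP and of spliceosome activation. Of 13 genes 3 (23.1%) rose and 4 (30.8%) fell, against 18.4% and 19.7% of all genes tested. The summed level of the Prpf genes dropped by 9.96%, from 65645 ± 101 to 59104 ± 830 normalized reads (SD, n = 3). Most of that fall is Prpf8, the U5 protein that forms the cavity of the active site, with 20469, 20368 and 20140.0 normalized reads in the buffer libraries and 15273, 15669 and 15827 in the L-4F libraries. All L-4F libraries were well below the buffer libraries, with little spread within either group (log2 fold change -0.38, SE 0.021, adjusted p = 4.2e-12). Prpf8 (ENSMUSG00000020850, chromosome 11 from 75486816 to 75509449, GRCm38; 42 exons, 7442 nt) stayed lower after length correction (-0.15, adjusted p = 7e-06).

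Genes of other U5 proteins went in both directions. Snrnp200, the helicase that unwinds U4 from U6, was at 10949, 10691 and 10639 normalized reads in the buffer libraries and 8340.3, 7980.5 and 8288 in the L-4F libraries (-0.39, and -0.19 after length correction), and Eftud2, the U5 GTPase, fell by 0.14 in log2 fold change (-0.14 after length correction). The U5 helicase gene Ddx23 fell slightly (-0.093, adjusted p = 0.0303), the U5 gene Snrnp40 rose by 0.18 and was not called after length correction (0.045), and Txnl4a was at 0.11 (adjusted p = 0.195). Prpf31 and Prpf6, which also encode tri-snRNP proteins, rose by 0.10 and 0.087, while Prpf3 (0.063) and Prpf4 (-0.063) were not called. The call for Prpf31 ended without buffer library 2 (adjusted p = 0.0598), and that for Prpf6 without buffer library 1 or 2 or L-4F library 1 or 3 (adjusted p from 0.0979 to 0.140).

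Prpf38a, needed for activation of the spliceosome, rose most of the Prpf genes, with 1752, 1855 and 1686 normalized reads in the buffer libraries and 2067, 2287 and 2205 in the L-4F libraries (0.31, adjusted p = 1.4e-05, and 0.28 after length correction). Its relative Prpf38b was at -0.055 (adjusted p = 0.157) and was called lower without L-4F library 2 (-0.076, adjusted p = 0.0488). Prpf4b, a kinase of the tri-snRNP, was at 7593, 7507 and 7692 normalized reads in the buffer libraries and 6182, 6683 and 5949.8 in the L-4F libraries (-0.28, adjusted p = 2e-06). The groups were far apart, yet the value was -0.026 (adjusted p = 0.623) after length correction, for a transcript of 7844 nt. The U1-associated gene Prpf39 fell (-0.25) and stayed lower after length correction (-0.18). It shares 317 exonic bases with Fkbp3, and was not called after correction for summed exon length (-0.025, adjusted p = 0.699). Prpf19, the ubiquitin ligase of the activation complex, was at 4700.3, 4777 and 4897 normalized reads in the buffer libraries and 4898, 4654 and 4789.8 in the L-4F libraries, with groups that overlapped (95% interval -0.066 to 0.059). Across the 13 Prpf genes the rank correlation of change with length was -0.83.

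Srrm1 and Srrm2 encode large proteins with serine and arginine repeats that bridge splicing complexes, and SRRM2 is, with SON, a core of nuclear speckles. Srrm2 had the most reads of all splicing genes in the buffer libraries and fell most among those called, with 49253, 49541 and 49546 normalized reads in the buffer libraries and 33862, 33052 and 32915 in the L-4F libraries. The libraries of each group were close together, and the groups far apart (log2 fold change -0.57, SE 0.017, adjusted p = 5.6e-16). Srrm2 (ENSMUSG00000039218, chromosome 17 from 23790532 to 23824741, GRCm38; 8864 nt) stayed lower after length correction (-0.28, 95% interval -0.32 to -0.24). Srrm1 was at 9040.2, 8844 and 8601 normalized reads in the buffer libraries and 7654, 7663 and 7793 in the L-4F libraries (-0.20, adjusted p = 2.4e-06, and -0.12 after length correction). Summed over all 83 genes the reads changed by -0.489%, from 605498 ± 3149 to 602536 ± 14779 (SD, n = 3). Without Srrm2 they changed by 2.38%, from 556051 ± 3103 to 569260 ± 14808. The groups overlapped in both sums. Son, the other speckle core, fell alongside, with 22695, 22226 and 22178 normalized reads in the buffer libraries and 16869, 17163 and 16595 in the L-4F libraries (-0.41, and -0.12 after length correction).

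**Figure D3:**
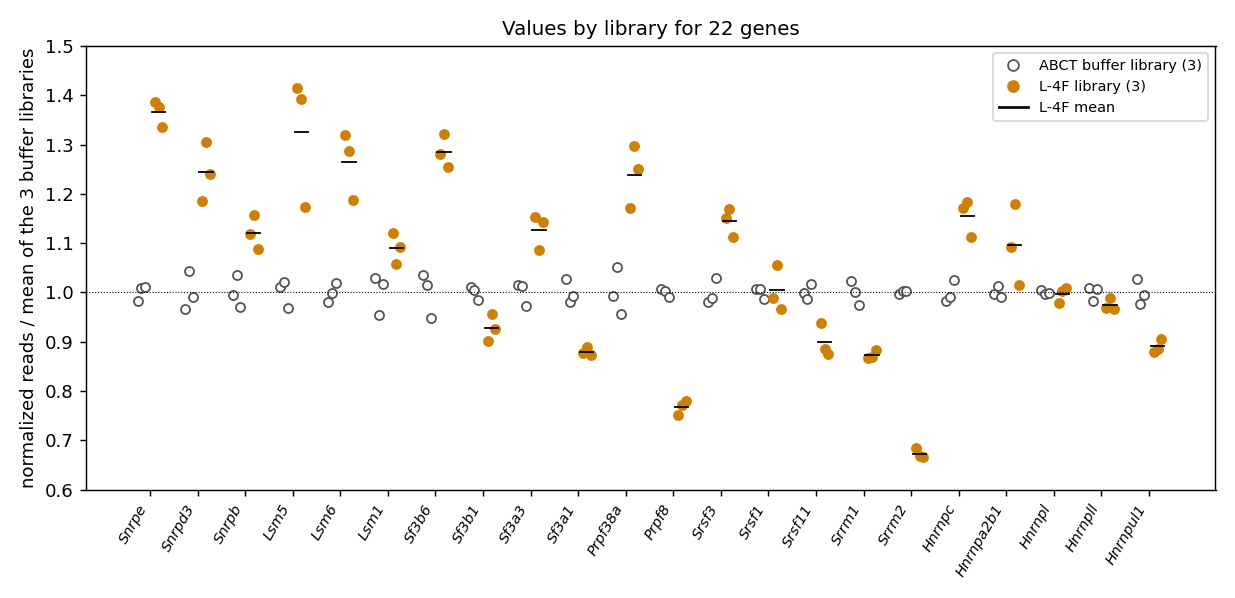
Normalized reads of 22 splicing genes in each library, divided by the mean of the 3 buffer libraries (vertical axis), with open circles for ABCT buffer, filled circles for L-4F and a bar for the L-4F mean. Srrm2 and Prpf8 lie below all other genes in all 3 L-4F libraries, Snrpe lies above 1.3 in each, and Hnrnpl and Srsf1 overlap their buffer values.

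Of the 11 SR protein genes (Srsf) 4 (36.4%) rose, 1 (9.09%) fell and 6 were not called, with a median log2 fold change of 0.063. Of all genes tested 18.4% rose and 19.7% fell. Srsf3, the smallest SR protein, which also acts in mRNA export, was at 11330.5, 11418 and 11891 normalized reads in the buffer libraries and 13290.2, 13503 and 12834 in the L-4F libraries (0.19, SE 0.025, adjusted p = 2.3e-06). Srsf5 was at 12499.8, 12945 and 12407 normalized reads in the buffer libraries and 14298, 14613 and 13670.2 in the L-4F libraries (0.17, adjusted p = 1.7e-05). In both genes all L-4F libraries were above the buffer libraries, and both kept their calls after length correction (0.24 and 0.18). Srsf7, a close relative of Srsf3, rose by 0.13 and Srsf6 by 0.088. Srsf7 was not called after length correction (0.062, adjusted p = 0.103), and neither gene was called by limma with its default spread model (adjusted p = 0.0693 for Srsf7 and 0.0876 for Srsf6). The processed copy Srsf3-ps was also higher (0.26, adjusted p = 0.038), and reads of this copy and of Srsf3 may have been counted for each other.

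Srsf11 was the SR gene that fell, with 8307, 8205 and 8460.0 normalized reads in the buffer libraries and 7807, 7374 and 7281 in the L-4F libraries (-0.15, adjusted p = 0.00015, and -0.17 after length correction). It was not called after correction for summed exon length (-0.013, adjusted p = 0.791). Srsf1, the classical SR protein, was at 14675, 14682 and 14389 normalized reads in the buffer libraries and 14418, 15407 and 14102 in the L-4F libraries, with groups that overlapped (log2 fold change 0.0050, 95% interval -0.052 to 0.062), and was called higher after length correction (0.14, adjusted p = 0.00031). Srsf2, the SR gene with the highest level per length (5506 normalized reads per kb), was at 10074, 10219 and 10386 normalized reads in the buffer libraries and 10275, 10756 and 11024 in the L-4F libraries (0.063, adjusted p = 0.0668), and was called higher without L-4F library 1 (0.091, adjusted p = 0.0102). Its exons overlap Mettl23 and Mfsd11. Srsf10, whose activity as a repressor is set by dephosphorylation, was at 0.020 (95% interval -0.048 to 0.088). Srsf12 had few reads, from 25.6 to 45.4 per library, and an interval of -0.96 to 0.095. Among the 7 tested kinases of SR proteins, Clk3 rose (0.091) and Clk2 fell (-0.10). After length correction 4 of these kinases were higher, Clk3 (0.14) among them, and 1, Clk2 (-0.11), was lower.

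The 6 splicing genes with the highest level per transcript length were all hnRNP genes. Hnrnpa2b1 led with 11326 normalized reads per kb of the longest transcript, averaged over the 6 libraries, followed by Hnrnpa1 with 9016 and Hnrnpf with 9006, while Hnrnpr had 196. Of the 20 Hnrnp genes 4 rose, 1 fell and 15 were not called, at a median log2 fold change of 0.041, and their summed reads rose by 3.98%. Hnrnpc, which binds uridine tracts in introns, was at 11656, 11739 and 12158 normalized reads in the buffer libraries and 13887, 14017 and 13187 in the L-4F libraries (0.21, SE 0.026, adjusted p = 1.1e-06). Hnrnpa3 was at 27543, 27785 and 27177 normalized reads in the buffer libraries and 30406, 32281 and 29976 in the L-4F libraries (0.17, adjusted p = 9e-06). Both were separate between the groups and stayed higher after length correction (0.17 and 0.29), but under quantile normalization Hnrnpa3 was at -0.0037 (adjusted p = 0.908). Hnrnph3 (0.17) and Hnrnpdl (0.11) rose and were not called after length correction (0.086 and 0.071). Hnrnph3 shares exonic bases with Rufy2, and Hnrnpdl was at 0.0717 without L-4F library 2 (adjusted p = 0.0283). The default spread model did not call Hnrnpdl (adjusted p = 0.129).

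Hnrnpul1 was the hnRNP gene that fell, with 9983, 9487 and 9659 normalized reads in the buffer libraries and 8542, 8592 and 8800.3 in the L-4F libraries (-0.17, adjusted p = 1.8e-05, and -0.14 after length correction). It was not called after correction for summed exon length (-0.022, adjusted p = 0.564). Its relative Hnrnpul2 was at -0.013 (95% interval -0.068 to 0.042).

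The regulators of CD45 exons were not called. Hnrnpll, which is induced when T cells become memory cells, was at 1658, 1614 and 1655 normalized reads in the buffer libraries and 1591, 1622 and 1589 in the L-4F libraries (log2 fold change -0.037, 95% interval -0.13 to 0.051, adjusted p = 0.529). Hnrnpl was at 13175, 13051 and 13092 normalized reads in the buffer libraries and 12815, 13149 and 13217 in the L-4F libraries (-0.0051, 95% interval -0.051 to 0.041). In both genes the groups overlapped. After correction for summed exon length Hnrnpll was called higher (0.18, adjusted p = 0.0025) and Hnrnpl too (0.062, adjusted p = 0.0313).

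The general hnRNPs A1, A2/B1, K and U were not called either. Hnrnpa1 was at 27674, 27907 and 27552 normalized reads in the buffer libraries and 28104, 29794 and 27648 in the L-4F libraries (0.041, adjusted p = 0.18). Hnrnpa2b1 was at 39252, 39948 and 39022 normalized reads in the buffer libraries and 43019, 46505 and 39962 in the L-4F libraries (0.13, 95% interval -0.039 to 0.30, adjusted p = 0.194). All 3 L-4F libraries of Hnrnpa2b1 were above the buffer libraries, with a wide spread among them. Without L-4F library 3, Hnrnpa1 (0.062, adjusted p = 0.0339), Hnrnpa2b1 (0.18, adjusted p = 0.00049), Hnrnpab (0.082, adjusted p = 0.0151), Hnrnpf (0.073, adjusted p = 0.0099) and Hnrnpm (0.063, adjusted p = 0.0432) were called higher. Hnrnpk was at 20387, 21307 and 20196 normalized reads in the buffer libraries and 20328, 21506 and 20792 in the L-4F libraries (0.017, 95% interval -0.033 to 0.067). Hnrnpu, a scaffold attachment factor, was at 38574, 38263 and 37574 normalized reads in the buffer libraries and 37985, 39179 and 37983 in the L-4F libraries (0.0092, 95% interval -0.029 to 0.047). The groups of both genes overlapped. Under quantile normalization Hnrnpa1 and Hnrnpu were called lower (-0.13 and -0.12). Many hnRNP genes, Hnrnpa1 and Hnrnpa3 among them, have processed copies in the genome, so their counts are uncertain to the extent that reads were shared.

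Several Hnrnp genes have long transcripts. After length correction 8 of 20 (40.0%) were higher and 1 (5.0%) lower, against 13.5% and 12.9% of all genes. Hnrnpr, with a longest transcript of 21452 nt, went from 0.0057 to 0.52 (adjusted p = 6.3e-10), Hnrnpu from 0.0092 to 0.25 and Hnrnpd from 0.041 to 0.25. The annotated length need not be that of the RNA in these cells, and for Hnrnpr few genes of the same length set the trend. After removal, change and length had a rank correlation of 0.12 over the 81 genes and 0.65 over the Hnrnp genes.

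**Figure D4:**
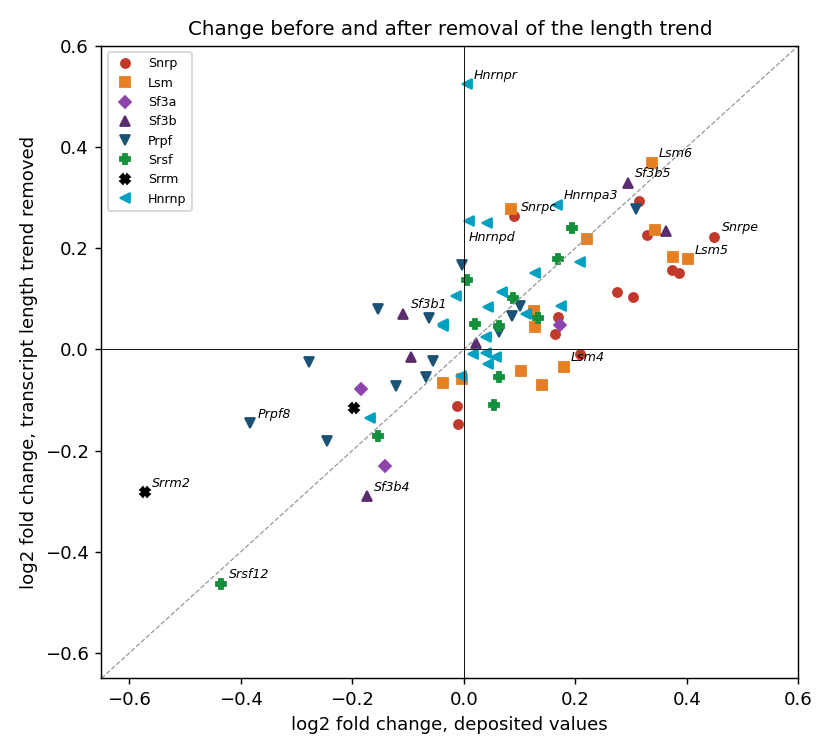
Log2 fold change of the 81 genes after length correction (vertical axis) against the log2 fold change of the deposited values (horizontal axis), L-4F against ABCT buffer, with symbols by family and a dashed line of equality. Srrm2 moves from -0.57 to -0.28, close to Sf3b4 at -0.29, Snrpe moves from 0.45 to 0.22, and Hnrnpr goes from 0.0057 to 0.52.

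Other genes of the splicing pathway, from lists outside the symbol rule, also went in both directions. Of 50 further snRNP and spliceosome genes 24 rose and 13 fell (median log2 fold change 0.086, median length 3183 nt), and after length correction 16 were higher and 12 lower (median 0.031). Besides Snrnp200, Bud31, a small protein of the activated spliceosome, was at 2054, 2066 and 1989 normalized reads in the buffer libraries and 2754, 2751 and 2682 in the L-4F libraries (0.42), and Zmat2, a tri-snRNP protein, rose by 0.36. Ddx46, the helicase that acts at the branch point, fell with a log2 fold change of -0.21 and was at -0.057 after length correction. Among the U2 auxiliary factors U2af1 rose (0.20), and U2af2 was at -0.053 (adjusted p = 0.0984). After length correction U2af1 was not called (-0.0041, adjusted p = 0.945) and U2af2 was called lower (-0.12, adjusted p = 0.00049). Of 9 exon junction complex genes 3 (33.3%) rose, among them Rbm8a (0.22) and Sap18 (0.18), and 2 (22.2%) fell, Acin1 (-0.19) and Pnn (-0.093). After length correction 2 exon junction complex genes were higher and 4 lower. Of 32 tested other splicing regulators 5 rose and 12 fell (median -0.044, median length 4661 nt), with Mbnl1 (-0.28) and Mbnl2 (-0.40), which promote adult splice forms, lower besides Son. After length correction this list had 12 higher and 8 lower, while Mbnl1 (-0.13) and Mbnl2 (-0.26) stayed lower.

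The SMN complex loads Sm rings onto snRNAs. Of 12 listed genes of snRNP assembly, not all of them parts of this complex, 4 (33.3%) rose and 1 (8.33%) fell. Of all genes tested 18.4% rose and 19.7% fell. Gemin2, which holds the Sm proteins before loading, was at 508, 577 and 624 normalized reads in the buffer libraries and 763, 754 and 695 in the L-4F libraries (0.38, adjusted p = 0.00038), and Gemin6 rose by 0.36 and Strap by 0.12. Gemin5, the large subunit that recognises snRNAs, was at 3516, 3486 and 3712 normalized reads in the buffer libraries and 3004, 2909 and 2854 in the L-4F libraries (-0.29, adjusted p = 9.3e-07). After length correction Gemin2 (0.26) and Gemin5 (-0.11) kept their calls, and Gemin6 (0.17) and Strap (0.071) did not. Smn1 itself (0.081, adjusted p = 0.402) and Prmt5 (-0.0045), the methyltransferase of Sm tails, were not called.

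Of the 83 genes, the authors' deposited table listed 30 as higher and 13 as lower at an FDR under 0.05, and 43 of the 44 genes called here were among them. The exception was Snrpert (deposited FDR 0.0871 in the authors' deposited table).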

How the data were processed

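Gene expression was measured by RNA sequencing in 6 libraries, 3 with L-4F and 3 with ABCT buffer, grouped by their titles. Per the labels' protocols, strand-specific libraries were made from total RNA with a TruSeq kit. FastQC 0.11.2 and 0.11.5 and StringTie 1.3.1c are named in the submitters' processing notes, which give no role for them. Not given in the sources used here are the aligner, genome build, annotation and use of strand in counting. The authors deposited log2 values, and the values themselves show what they are: reads were scaled by one factor per library, 1 was added and the logarithm taken. The authors' factors (0.899 to 1.13) returned whole reads for 100% of values within 0.01 read. The deposited table also held p-values and FDR, used here only for the authors' own calls.

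The 14922 of 24559 genes with 10 or more normalized reads in 3 or more libraries were tested on the log2 scale in R 4.3.3 by limma 3.58.1 (statmod 1.5.0 installed), under a trended robust spread model, the group as its single term and Benjamini-Hochberg adjustment over these genes. The alternative called the default spread model has neither trend nor robust weights. All adjusted p-values are from limma unless the authors' table is named, and the threshold for a call was 0.05. Normalized reads are the deposited values returned to the linear scale, and intervals are 95% intervals of the limma result. Lengths, coordinates and overlaps came from GENCODE M21 (GRCm38), by gene identifier, and may differ from the authors' annotation. For length correction a robust loess (span 0.3) against log2 transcript length, or against summed exon length where that is named, was subtracted from each library. Exon overlaps are on either strand, and whether reads of overlapping genes were told apart by strand is not stated. The procedure was tested on simulated data.

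Members could be named by their fold change, and single results of some genes are not reported here, although the counts include them. Values by library were given for up to 2 called members per family that rose most and up to 2 that fell most, the member with the highest mean, and listed members. Of the other lists, up to 4 genes with the smallest adjusted p were named, and Eftud2, Ddx23, Snrnp40, Txnl4a, Snrnp70, Phf5a, U2af1, U2af2, Smn1 and Prmt5 were added after their values were seen. The members, lists and settings were chosen with earlier results of these data known. Settings tried were other scalings, filters, spread models and pseudocount, limma-voom on the recovered reads, length and GC trends, the replicate number as a block, and each library left out in turn. The median chi-square between libraries, relative to counting noise, was 2.17 to 2.73 within and 7.50 to 9.01 between groups, and no pair of libraries agreed within counting noise.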

Additional observations from a re-analysis of the deposited data

How the results depend on the processing

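Each of the 81 tested genes was called higher, called lower or not called. This call was the same for 51 after correction for transcript length and 53 after correction for summed exon length. It was the same for 68 under the default spread model of limma, 71 to 77 under the other scalings and 81 with limma-voom or a pseudocount of 0.1. Genes not called in either setting count as the same whatever their sign. Median centring gave 26 higher and 17 lower members (60.5% of calls higher, against 70.5%) and 2161 higher and 3630 lower genes overall (37.3% against 48.2%), with the median of all genes at -0.040. It put the family medians at 0.022 for Srsf, -0.42 for Srrm, -0.077 for Sf3b, 0.24 for Snrp, 0.000531 for Hnrnp and -0.10 for Prpf. Quantile normalization gave -0.46 for Srrm and 0.000169 for Hnrnp, with Hnrnpa3 at -0.0037, Hnrnpa1 at -0.13 and Hnrnpu at -0.12, and total-read scaling gave -0.40 for Srrm.

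After correction for transcript length, 1922 genes overall were lower, and the medians were -0.20 for Srrm, -0.079 for Sf3a, 0.041 for Sf3b, 0.11 for Snrp, 0.077 for Hnrnp, 0.035 for Prpf and 0.077 for Lsm. The Sf3b and Prpf medians changed sign. Of the genes reported singly and called before or after correction, so did Hnrnpul2 (0.10), Lsm4 (-0.034), Prpf19 (0.17), Sf3b1 (0.070) and Snrpf (-0.0082). Genes called neither before nor after are not listed, although some, Lsm10 among them, also changed sign. After correction for summed exon length 7 members were lower (84.1% of calls higher), and the medians were -0.21 for Srrm, 0.11 for Sf3b, 0.18 for Snrp, 0.11 for Hnrnp, 0.035 for Prpf and 0.061 for Lsm. Of the genes reported singly and called before or after this correction, Hnrnpl (0.062), Hnrnpul2 (0.092), Hnrnpll (0.18), Lsm4 (-0.016), Prpf19 (0.11), Sf3b3 (0.10) and Sf3b1 (0.10) changed sign. The cause of these changes was not tested.

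Leaving out each library in turn gave 28 to 35 higher and 12 to 13 lower members, and a Snrp median of 0.25 to 0.31. Of the 44 calls, 38 held in all 6 such fits. With the replicate number as a block, 30 members were higher and 13 lower: Hnrnpa2b1 was called higher (adjusted p = 0.0116), and Lsm12 (0.0603) and Snrpert (0.0611) were not called. Same-numbered libraries had correlations of 0.0511, 0.0111 and 0.109 in their deviations, and not every library correlated best with its own number, so the numbers are not taken to pair the samples. With the default spread model, 22 members were higher and 9 lower. Besides the losses given with the results, Lsm12, Prpf31, Prpf6, Sf3a2 and Snrpert then had adjusted p of 0.163, 0.0773, 0.128, 0.149 and 0.101. Depth limits Snrpn, Srsf12 and Snrpert, whose intervals are the widest.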
